A study of Schizosaccharomyces pombe with 4 samples.

Results

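The mug and meu genes of fission yeast (Schizosaccharomyces pombe) were followed in total RNA of 4 cultures. The members were all features of type mRNA whose name begins with mug or meu followed by a digit, which gave 121 of 5144 mRNA features in the deposited tables, 102 named mug and 19 named meu. By the labels one culture carried a deletion of swd22, another a deletion of ssu72 and another a deletion of clr4, and the last was wild type. All 4 were grown for 3 days at 18 °C in YEA, a rich medium, and held in mid-log phase, and each genotype had 1 library, so no difference below has a replicate check and no p-value is given. The labels name no further allele, strain or mating type. The deposited ratios were made against a shared library left unnamed in the files, whose values stand here beside the others, although its strain and growth are not known.

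The names mug (meiotically upregulated gene) and meu (meiotic expression upregulated) were given to genes whose transcripts rise when fission yeast enters meiosis. Cells normally do so only when starved of nitrogen and mated. The transcription factor Ste11 starts the programme, the RNA-binding protein Mei2 drives entry into meiosis, and the forkhead factor Mei4 switches on the middle genes of meiosis and sporulation. In growing cells many meiotic transcripts are kept scarce, and one known route is the RNA-binding protein Mmi1, which recognises TNAAAC repeats in the transcript and leads it to degradation by the nuclear exosome. Swd22 and Ssu72 belong to CPF, the cleavage and polyadenylation factor that makes 3′ ends of transcripts, in which Ssu72 acts as a protein phosphatase. Clr4 methylates lysine 9 of histone H3 in heterochromatin. The series title poses the question of CPF in heterochromatin and silencing, and the mug and meu genes show how a class of genes that is normally low in growing cells behaved in these deletions.

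The libraries held 15282718 to 24005944 reads over all 7015 features. The ssu72 gene held 16 reads in the ssu72 deletion and 478 to 740 elsewhere, and swd22 held 281 reads in the swd22 deletion and 651 to 787 elsewhere, a lower number but no loss. The clr4 feature held 1645 reads in the library labelled as a clr4 deletion and 1158 to 1445 elsewhere, so the reads go against that label, and "deletion" below gives the label of a library. The library labelled wild type stood apart. In it the heterochromatin gene swi6 held 200 reads, against 3601 to 4431 in each other library, and the marker gene ura4 held 6 reads, against 1732 to 3961. Differences of named members that pass 2-fold from that library are therefore given beside those from the unnamed reference library. Differences are log2 ratios of recovered reads on the scale of the deposited values, on which 1 read in the library labelled wild type equals 1.28 reads of the swd22 deletion, 1.57 of the ssu72 deletion, 1.49 of the clr4-labelled library and 1.48 of the unnamed reference. Where 3 values of the deletions follow each other, they belong to swd22, ssu72 and clr4 in that order. Brackets hold 95% Clopper-Pearson intervals, which cover counting error only.

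The mug and meu genes were low in these growing cultures but all were detected. Levels between genes are given as RPKM, reads per kilobase of feature scaled to the reads of the library. The median member lay at 12.9 RPKM in the swd22 deletion, 13.6 in the ssu72 deletion and 12.8 in the clr4-labelled library, against 9.18 RPKM in the library labelled wild type and 8.67 in the unnamed reference. The median mRNA feature lay at 45.5, 42.9 and 43.1 RPKM in the libraries labelled swd22, ssu72 and clr4, at 43.8 in the library labelled wild type and at 41.4 in the unnamed reference. Of the 121 members, 81 lay in the lowest 25% of mRNA features by their mean over the 5 libraries and 56 in the lowest 10%. Only 17 lay above the mRNA median and 2 in the highest 25%. Together the members took 0.518% of the mRNA reads in the swd22 deletion, 0.494% in the ssu72 deletion and 0.515% in the clr4-labelled library, against 0.468% of them in the library labelled wild type and 0.437% in the unnamed reference.

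**Figure D1:**
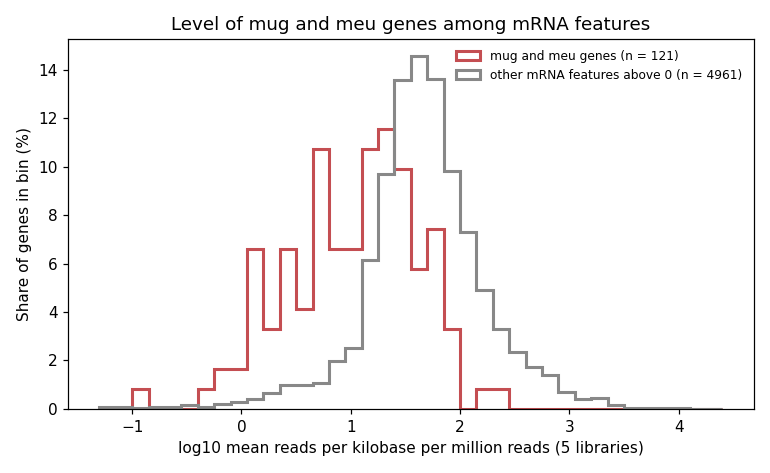
Share of genes (%) in bins of the mean level over the 5 libraries (log10 of RPKM), for the 121 mug and meu genes (red) and the other mRNA features above 0 reads (grey). The members pile up to the left, with 81 of 121 in the lowest 25% of mRNA features.

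The most abundant members included genes of described function. mug134 encodes the endosulfine Igo1, a regulator of phosphatase PP2A in nutrient signalling, and led with 236 RPKM in the swd22 deletion, 242 in the ssu72 deletion and 239 in the clr4-labelled library, against 227 RPKM in the library labelled wild type and 183 in the unnamed reference. mug64, a predicted BAR domain protein of the kind that binds curved membranes, followed with 196, 177 and 155 RPKM in the libraries labelled swd22, ssu72 and clr4, against 130 in the library labelled wild type and 167 in the unnamed reference. mug168 and mug35, both described only as specific to Schizosaccharomyces, and mug58, a predicted kinase of the GLYK family, averaged 81.2, 79.7 and 73.3 RPKM over the 5 libraries.

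At the other end stood members with a handful of reads. mug116 held 5, 3 and 3 reads in the libraries labelled swd22, ssu72 and clr4, against 1 in the library labelled wild type and 3 in the unnamed reference. mug112 held 4, 6 and 5 reads, against 4 in the wild-type-labelled library and 2 in the unnamed reference. mug128, meu15 and mug96 completed the 5 lowest, with means of 0.564, 0.678 and 1.0 RPKM. Between 3 and 6 members of 121 had under 10 reads in a library, and no member was at 0 in any.

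Sequence upstream of the members held the known Mei4 element more often than that of other genes. All 121 members were matched to RefSeq genes of the ASM294v3 assembly, 110 by symbol and 11 by synonym. The 250 bases before each RefSeq gene start were searched on both strands. The deposited features of some members begin further upstream, as for mug24 (1917714, against 1919282 in RefSeq). For such members searched bases can lie inside the counted feature. GTAAACA, the core that Mei4 binds, was present for 50 of 121 members (41.3%) and for 758 of all 5113 coding genes (14.8%). GTAAATA, a variant of it, was present for 22.3% of members and 14.4% of all coding genes, and either of these was present for 52.9% of members and 26.7% of all. TGACGT, the letters of the cyclic AMP response element, stood upstream of 4.96% of members and 5.52% of all coding genes, and TTCTTTG, the core of the element bound by Ste11, upstream of 9.92% and 7.80%. A match gives the letters and not a bound site.

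The windows below show GTAAACA, or its reverse complement TGTTTAC, in capitals with 11 bases on either side, in RefSeq ASM294v3. Windows that touch an annotated exon are left out, and of those that remain for the members named by their level or difference the one nearest to the gene start is shown for each gene, so that the copies next to measured genes can be read. Each is written 5′ to 3′ on the strand of its gene.
meu23: tacagctttggTGTTTACatattcatgta
meu29: ggtgaattcggTGTTTACatcggtatatc
mug125: taaacagtgttTGTTTACttttatgttat
mug134: taattttagagTGTTTACgtatcgacaaa
mug64: attcgacattgGTAAACAagatatataaa
mug65: tcatttagctaGTAAACAccaaaaatcgg

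The meu23 window lay at III:99559-99587 on the minus strand, with 22 bases between the element and the gene start, and a second copy lay 37 bases from the start. The mug125 window lay at I:1087294-1087322 on the minus strand, 28 bases from the start, and a second copy lay 40 bases from it. These starts are those of RefSeq. The deposited features of meu23 and mug125 reach further upstream, to 99670 and 1087505, so their copies lie inside the counted features. The other windows lay at I:2530038-2530066 (meu29, plus strand), I:1238796-1238824 (mug134, plus strand), I:1136138-1136166 (mug64, minus strand) and I:715289-715317 (mug65, plus strand), 64 to 132 bases from the start, with a second copy for mug65 at 145 bases. Of 49 measured members with GTAAACA, 2, 7 and 5 were at least 2-fold higher in the libraries labelled swd22, ssu72 and clr4 than in the library labelled wild type, against 12, 13 and 12 of 69 measured members without it. Than in the unnamed reference, 7, 7 and 8 of the 49 and 18, 19 and 15 of the 69 were higher. The shares of all mRNA features higher were 6.48%, 6.1% and 5.4% against the library labelled wild type and 8.89%, 8.39% and 8.13% against the unnamed reference. The difference between members with and without the element was not tested.

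The TNAAAC letters that Mmi1 reads were also counted in the mature transcripts of RefSeq, a count chosen after the values were seen. Members held 2.25 per kilobase and all coding genes 1.77, and for TTAAAC alone the numbers were 0.490 and 0.411 per kilobase. The most stood in mug45 (18), mug8 (14), mug62 (13), a predicted AMP-binding enzyme, and mug81 (12), a predicted helicase of the Slh1 type, and longer transcripts hold more. Of 35 members with 5 or more TNAAAC, 4, 4 and 5 were at least 2-fold higher in the libraries labelled swd22, ssu72 and clr4 than in the library labelled wild type, against 10, 16 and 12 of 83 measured members with fewer. Than in the unnamed reference, 4, 5 and 5 of the 35 and 21, 21 and 18 of the 83 were higher. Of all measured mRNA features 6.48%, 6.1% and 5.4% were higher than in the library labelled wild type. Than in the unnamed reference 8.89%, 8.39% and 8.13% of them were higher. The difference between members with more and fewer TNAAAC was not tested. The densest 30 bases of the first pair, with the letters in capitals, lay at II:3638753-3638782 and I:2446813-2446842, both on the plus strand of RefSeq ASM294v3.
mug45: acgtcgagTTAAACcaTAAAACacaagtag
mug8: gatcttTTAAACgtatttTAAAACcaagaa

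mug45 held 807 reads in the swd22 deletion, 1086 in the ssu72 deletion and 638 in the clr4-labelled library, against 383 in the wild-type-labelled library and 858 in the unnamed reference. Its differences from the library labelled wild type were 0.71 (0.54 to 0.89), 0.85 (0.68 to 1.02) and 0.16 (-0.03 to 0.34). mug8 held 1718, 1808 and 1756 reads in the libraries labelled swd22, ssu72 and clr4, against 667 in the wild-type-labelled library and 1461 in the unnamed reference. Its differences were 1.0 (0.87 to 1.13), 0.79 (0.66 to 0.92) and 0.82 (0.69 to 0.95) from the library labelled wild type, and 0.44, 0.23 and 0.26 from the unnamed reference. mug62 and mug81 lay between -0.40 and -0.07 in all 3 deletions against the library labelled wild type.

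Against the library labelled wild type, members higher in a deletion far outnumbered members lower. A member counted as measured with at least 10 reads in the higher library of a pair, which 118 of 121 reached in each deletion, and as different at 2-fold. mug112 and mug116 missed that minimum in each deletion, mug128 in the swd22 and ssu72 deletions and mug96 in the clr4-labelled library. In the swd22 deletion 14 members were higher and 1 lower, where 6.48% of measured mRNA features were higher and 1.72% lower. In the ssu72 deletion 20 were higher and 1 lower, against 6.1% and 2.87% of mRNA features. In the clr4-labelled library 17 were higher and 1 lower, against 5.4% and 1.23%. The member shares were 11.9%, 16.9% and 14.4% higher and 0.847% lower in each. The median member differed by 0.20, 0.11 and 0.19 in the libraries labelled swd22, ssu72 and clr4, and the median mRNA feature by 0.03, -0.02 and -0.03, so most members lay within 2-fold.

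Against the unnamed reference the members higher were 25 in the swd22 deletion, 26 in the ssu72 deletion and 23 in the clr4-labelled library, of 118 measured each, and the members lower were 1, 3 and 2. The mRNA features higher were 8.89%, 8.39% and 8.13%, and those lower 2.34%, 2.4% and 1.74%. The library labelled wild type had 7 of 116 measured members higher than the unnamed reference and 3 lower, with 5.43% of mRNA features higher and 2.86% lower. All 3 deletion comparisons share the library they are set against, so their counts are not independent of one another.

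**Figure D2:**
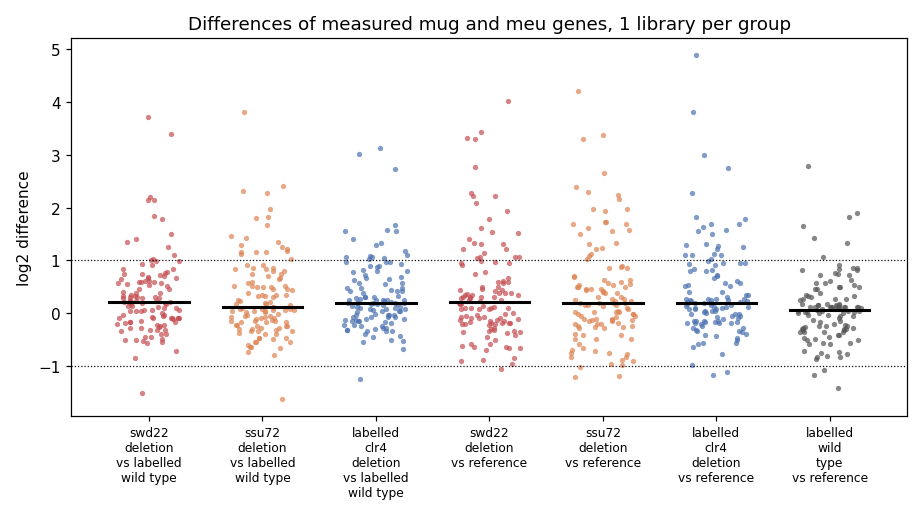
Log2 difference of each measured mug and meu gene in the deletions against the library labelled wild type (left), and in the deletions and that library against the unnamed reference (right). Points are genes, bars are medians and dotted lines mark 2-fold. Few points lie below the lower line in any comparison.

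Low genes differ more often than abundant ones in these libraries, and the members are low genes. Among mRNA features at or below the median level of the members, 17.3%, 19.2% and 21.3% were higher in the libraries labelled swd22, ssu72 and clr4 than in the library labelled wild type, and 6.68%, 10.2% and 6.0% lower. Members at or below that level were higher in 12.1%, 24.1% and 19.0%, and 1.72% of them were lower in each deletion. Against the unnamed reference, members at or below that level were higher in 27.6%, 27.6% and 24.1%, and mRNA features at or below it in 26.3%, 27.0% and 29.0%. Among members above that level 11.7%, 10% and 10% were higher than in the library labelled wild type, against 5.27%, 4.63% and 3.59% of mRNA features above it. Than in the unnamed reference, 15%, 16.7% and 15% of those members were higher, against 6.96%, 6.32% and 5.75% of mRNA features above it. Above the cut the groups are not at like level. Only 17 of the 60 members there lay above the mRNA median, while the 4539 mRNA features reach to the most abundant genes. The part of level in these shares was not tested.

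Many of the higher members were genes described only as specific to Schizosaccharomyces, with no domain or activity named. Of 46 members so described, 43 were measured, and 8, 13 and 13 were higher in the libraries labelled swd22, ssu72 and clr4 than in the library labelled wild type, with none lower by 2-fold. Those were 18.6%, 30.2% and 30.2% of the 43. Of all measured mRNA features 6.48%, 6.1% and 5.4% were higher, and of those at or below the median level of the members 17.3%, 19.2% and 21.3%. The level of this class by itself is not given here. Of the other 75 members, which are all those with any other description, 6, 7 and 4 were higher and 1 was lower in each. Than in the unnamed reference, 13, 13 and 9 of the 43 were higher (30.2%, 30.2% and 20.9%), against 12, 13 and 14 of the 75 (16%, 17.3% and 18.7%), so in the clr4-labelled library the shares of the classes lay close together there. Against the library labelled wild type, the 19 meu genes had 5, 7 and 4 higher and none lower by 2-fold, and 99 measured mug genes had 9, 13 and 13 higher and 1 lower in each. Against the unnamed reference the meu genes had 7, 8 and 6 higher and the mug genes 18, 18 and 17, where 8.89%, 8.39% and 8.13% of all mRNA features were higher.

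The genes meu27, mug108, mug14 and mug168 were the only measured members at least 2-fold higher in all 3 deletions against both the library labelled wild type and the unnamed reference. mug108 (chromosome I, 5124554 to 5125643), of no known role, held 717 reads in the swd22 deletion, 994 in the ssu72 deletion and 1525 in the clr4-labelled library, against 127 in the wild-type-labelled library and 51 in the unnamed reference. It was highest in the clr4-labelled library, and the library labelled wild type itself lay 1.89 (1.41 to 2.39) above the unnamed reference. Its differences from the library labelled wild type were 2.14 (1.86 to 2.42), 2.32 (2.05 to 2.59) and 3.01 (2.74 to 3.28), and from the unnamed reference 4.02, 4.20 and 4.89. The feature SPAC29A4.22 shares 60 bases with mug108 on the same strand and held 24, 43 and 69 reads in the deletions, against 16 in the wild-type-labelled library and 5 in the unnamed reference, and its part in the result was not tested.

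mug14 (chromosome II, 128660 to 129742) is described as an adducin, the name of animal proteins that cap actin filaments. It held 716 reads in the swd22 deletion, 229 in the ssu72 deletion and 523 in the clr4-labelled library, against 53 in the wild-type-labelled library and 77 in the unnamed reference. The swd22 deletion was highest and the ssu72 deletion lowest among the deletions, and each deletion lay above the other libraries. The differences were 3.39 (2.99 to 3.83), 1.46 (1.02 to 1.92) and 2.72 (2.31 to 3.16) from the library labelled wild type, and 3.43, 1.49 and 2.75 from the unnamed reference. The noncoding feature SPNCRNA.1314, which shares 67 bases with it on the same strand, held 31, 12 and 23 reads in the deletions, against 8 in the wild-type-labelled library and 31 in the unnamed reference, and its part in the result was not tested.

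meu27 (chromosome III, 1061503 to 1064195) belongs to the UPF0300 family, a small set of proteins of unknown role. It held 390, 501 and 292 reads in the libraries labelled swd22, ssu72 and clr4, against 66 in the library labelled wild type and 97 in the unnamed reference. The differences were 2.20 (1.82 to 2.60), 2.27 (1.90 to 2.67) and 1.57 (1.18 to 1.97) from the library labelled wild type and nearly the same, 2.22, 2.29 and 1.58, from the unnamed reference. The other members of the family, mug131, mug132 and mug133, lay between -0.52 and 0.96 in the 3 deletions against the library labelled wild type. From the unnamed reference mug133 lay at 0.59, 0.85 and 1.10, so that it passed 2-fold in the clr4-labelled library there, and mug131 and mug132 lay between -0.77 and -0.15. Related copies may share reads, and how the counting treated them is not given in the sources used here.

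mug168 (chromosome II, 211511 to 212091) was the most abundant of these 4. It held 1341, 1851 and 1179 reads in the libraries labelled swd22, ssu72 and clr4, against 369 in the library labelled wild type and 333 in the unnamed reference. The differences were 1.5 (1.33 to 1.67), 1.67 (1.51 to 1.84) and 1.10 (0.93 to 1.27) from the library labelled wild type, and 2.22, 2.39 and 1.81 from the unnamed reference.

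**Figure D3:**
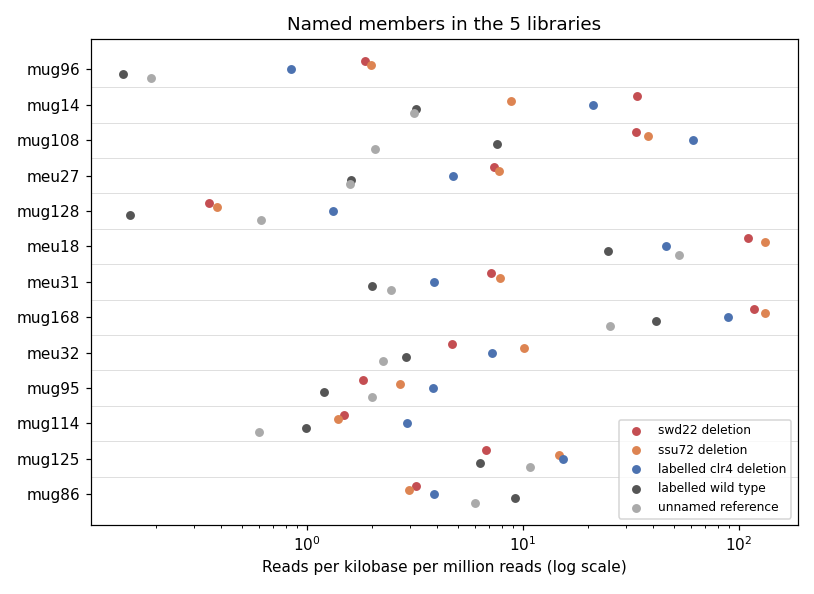
Level in RPKM (log scale) of 13 named members in the 5 libraries, coloured by library. For mug14, mug108, meu27 and mug168 the 3 deletions lie to the right of the library labelled wild type and the unnamed reference, and for mug86 to the left of both.

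A further group was high in the CPF deletions and less so in the clr4-labelled library. meu18 (chromosome II, 1158533 to 1160295), of no known role, held 3800 reads in the swd22 deletion, 5572 in the ssu72 deletion and 1846 in the clr4-labelled library, against 670 in the wild-type-labelled library and 2105 in the unnamed reference. Its differences from the library labelled wild type were 2.14 (2.02 to 2.26), 2.40 (2.29 to 2.52) and 0.88 (0.75 to 1.01). From the unnamed reference they were 1.06, 1.32 and -0.20, since the library labelled wild type lay -1.08 (-1.21 to -0.95) from it, so the clr4 value changed sign with the library it was set against. meu31, also of no known role, held 238, 322 and 151 reads in the libraries labelled swd22, ssu72 and clr4, against 52 in the wild-type-labelled library and 95 in the unnamed reference. Its differences were 1.83 (1.39 to 2.29), 1.98 (1.55 to 2.43) and 0.96 (0.49 to 1.44) from the library labelled wild type and 1.53, 1.68 and 0.66 from the unnamed reference.

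Other members were highest in the clr4-labelled library. mug114, described as specific to S. pombe, held 60, 69 and 136 reads in the libraries labelled swd22, ssu72 and clr4, against 31 in the library labelled wild type and 28 in the unnamed reference. Its clr4 value was 1.55 (0.98 to 2.17) from the library labelled wild type and 2.27 from the unnamed reference. mug95 held 33, 60 and 81 reads, against 17 in the wild-type-labelled library and 42 in the unnamed reference, and its clr4 value was 1.67 (0.91 to 2.52) from the library labelled wild type but 0.94 from the unnamed reference. In the ssu72 deletion mug95 lay at 1.17 from the library labelled wild type and at 0.43 from the unnamed reference. The chromatin remodelling gene snf21 shares 67 bases with mug95 on its strand and held 5564 to 7154 reads in each library, and its part in the result was not tested. mug35, with 1699, 1932 and 3641 reads in the deletions, against 1176 in the wild-type-labelled library and 2184 in the unnamed reference, was at 1.05 (0.96 to 1.15) in the clr4-labelled library from the library labelled wild type and at 0.73 from the unnamed reference.

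The largest ratio of a member from the library labelled wild type rested on very few reads in each deletion. mug96 held 17, 22 and 9 reads in the libraries labelled swd22, ssu72 and clr4, against 1 in the library labelled wild type and 2 in the unnamed reference. Its differences of 3.73 (1.05 to 9.11) and 3.81 (1.18 to 9.17) in the swd22 and ssu72 deletions have wide intervals for that reason, and from the unnamed reference they were 3.30 (1.22 to 6.45) and 3.38 (1.35 to 6.51). mug128 held 3, 4 and 13 reads, against 1 in the wild-type-labelled library and 6 in the unnamed reference, with a clr4 value of 3.12 (0.39 to 8.53) from the library labelled wild type and 1.11 (-0.39 to 2.79) from the unnamed reference. The level of neither is fixed by these counts. meu15, another of the lowest members, held 16, 28 and 20 reads, against 7 in the wild-type-labelled library and 8 in the unnamed reference, and in the ssu72 deletion lay at 1.35 from the library labelled wild type and at 1.73 from the unnamed reference.

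The single member at least 2-fold lower in each deletion was mug86, a predicted acetate transporter of the membrane (chromosome I, 1495270 to 1498669). It held 215 reads in the swd22 deletion, 243 in the ssu72 deletion and 301 in the clr4-labelled library, against 477 in the wild-type-labelled library and 465 in the unnamed reference. Each deletion lay below the other libraries. The differences were -1.51 (-1.75 to -1.28), -1.62 (-1.85 to -1.40) and -1.24 (-1.46 to -1.03) from the library labelled wild type. From the unnamed reference they were -0.90 (-1.14 to -0.67), -1.02 (-1.25 to -0.79) and -0.64 (-0.85 to -0.43), so that only the ssu72 deletion was past 2-fold there. mug86 shares 561 bases with mug116 on its strand, and mug116 held 1 to 5 reads in a library.

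The next lowest members lay within 2-fold. In the swd22 deletion they were mug153 at -0.85, mug165, a subunit of the Clr6 histone deacetylase complex, at -0.72, mug109, a predicted binder of Rab GTPases, at -0.57, mug4, a DNAJ domain protein, at -0.55 and mug65, a predicted dysferlin-like protein of membrane traffic, at -0.52. In the ssu72 deletion they were mug184, an Hsp70-binding protein, at -0.81, mug153 at -0.74, mug161, a predicted splicing factor of the CwfJ family, at -0.66, meu29, a predicted regulator of calcium transport, at -0.64 and mug113, of the GIY-YIG nuclease superfamily, at -0.61. In the clr4-labelled library they were mug1, a predicted dynamitin subunit of dynactin, at -0.67, mug65 at -0.55, mug131 at -0.52, meu23 at -0.50 and mug183, a predicted histone chaperone like Rtt106, at -0.45. Several of these directions depended on the library they were set against. mug65 lay 0.30, 0.26 and 0.27 above the unnamed reference in the libraries labelled swd22, ssu72 and clr4, and mug1 lay 0.35, 0.63 and 0.18 above it. mug165 lay -1.07, -0.84 and -0.51 and mug184 -0.70, -1.22 and -0.24 from the unnamed reference, in the same direction as from the library labelled wild type except for mug184 in the clr4-labelled library, which was at 0.17 from it.

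Between the CPF subunits, few members differed. Of 118 measured members, 2 were at least 2-fold higher in the ssu72 deletion than in the swd22 deletion and 1 was lower, where 0.476% of mRNA features were higher and 1.09% lower. The median member lay at -0.06, as did the median mRNA feature. meu32 held 300 reads in the ssu72 deletion and 113 in the swd22 deletion, a difference of 1.12 (0.80 to 1.44). mug125 held 446 reads in the ssu72 deletion and 168 in the swd22 deletion, also a difference of 1.12 (0.86 to 1.38). mug14 went the other way, with 229 reads in the ssu72 deletion and 716 in the swd22 deletion, a difference of -1.94 (-2.16 to -1.72).

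In the clr4-labelled library meu32 and mug125 lay nearer to the ssu72 deletion than to the swd22 deletion. meu32 held 203 reads in the clr4-labelled library, against 54 in the wild-type-labelled library and 63 in the unnamed reference. It was higher than the library labelled wild type by 0.70 (0.22 to 1.20), 1.82 (1.40 to 2.27) and 1.33 (0.89 to 1.79) in the libraries labelled swd22, ssu72 and clr4, and than the unnamed reference by 1.05, 2.17 and 1.68. mug125 held 444 reads in the clr4-labelled library, against 122 in the wild-type-labelled library and 308 in the unnamed reference. Its differences were 0.10, 1.22 and 1.28 from the library labelled wild type but -0.67, 0.45 and 0.52 from the unnamed reference. The ceramide synthase gene lag1 shares 63 bases with mug125 on its strand and held 3581 to 4248 reads in each library, and its part in the result was not tested.

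**Figure D4:**
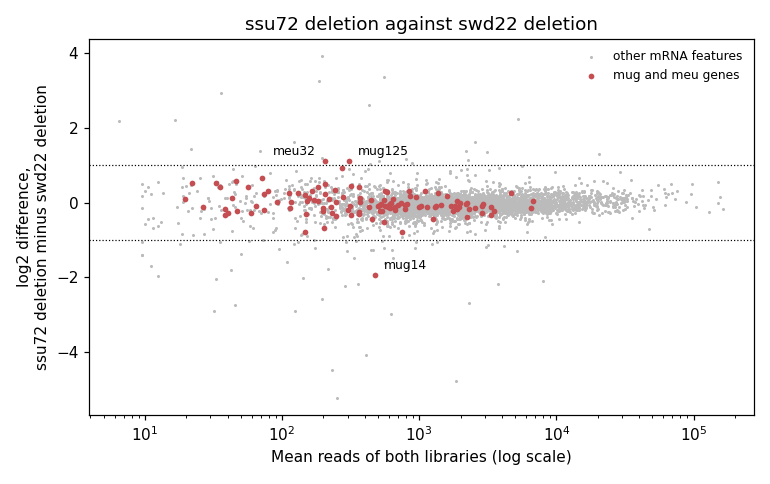
Log2 difference between the ssu72 deletion and the swd22 deletion against the mean reads of both libraries (log scale), for mug and meu genes (red) and other mRNA features (grey). Dotted lines mark 2-fold. Only meu32, mug125 and mug14 among measured members lie past them.

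Of 5 members named for a described meiotic role, meu13 alone passed 2-fold from the library labelled wild type, and mug27 and meu10 passed it from the unnamed reference. meu13, related to the mammalian TBPIP protein and known in meiotic pairing of homologues, held 46, 48 and 59 reads in the libraries labelled swd22, ssu72 and clr4, against 15 in the wild-type-labelled library and 31 in the unnamed reference, with differences of 1.26, 1.03 and 1.40 from the library labelled wild type and 0.78, 0.55 and 0.92 from the unnamed reference. mug27, a meiosis-specific protein kinase, lay at 0.52, 0.75 and 0.98 from the library labelled wild type and at 1.33, 1.55 and 1.78 from the unnamed reference. meu14, a sporulation protein of the forespore membrane, lay at 0.59, 0.79 and 0.22, and meu6, a protein of meiotic chromosome segregation, at 0.12, -0.16 and 0.66 from the library labelled wild type. Set against the unnamed reference, meu14 lay at 0.50, 0.69 and 0.13 and meu6 at 0.25, -0.02 and 0.80. meu10, a protein of ascospore wall assembly, lay at 0.14, -0.03 and 0.04 from the library labelled wild type but at 1.78, 1.62 and 1.69 from the unnamed reference. These 5 were not chosen by the size of their difference, and no set rule picked them, so they do not stand for all members with a meiotic role.

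meu10 was one of several members for which the library labelled wild type lay with the deletions above the unnamed reference. The members at least 2-fold higher in the library labelled wild type than in the unnamed reference were meu10, mug108, mug135, mug143, mug147, mug180 and mug191, and those lower were meu18, meu25 and mug103, named after their values were seen. mug147 held 2658, 3171 and 4299 reads in the libraries labelled swd22, ssu72 and clr4 and 1417 in the library labelled wild type, against 306 in the unnamed reference. Its differences from the unnamed reference were 3.33, 3.29 and 3.80 in the deletions and 2.78 in the library labelled wild type, and from the library labelled wild type the deletions lay at 0.55, 0.51 and 1.02. mug143 lay at 1.17 from the library labelled wild type and at 2.99 from the unnamed reference in the clr4-labelled library. mug103 held 27, 44 and 35 reads in the deletions, against 8 in the wild-type-labelled library and 32 in the unnamed reference, so its differences were 1.39, 1.81 and 1.55 from the library labelled wild type but -0.04, 0.38 and 0.12 from the unnamed reference. The excess of counts against the unnamed reference therefore includes members that did not differ by 2-fold from the library labelled wild type.

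An antisense feature was listed for 25 of the 121 members. Its level was above that of the gene for 12 of the 25, per length over the 5 libraries, with a median ratio of 0.860. The library kit keeps the strand of the RNA, and the strand setting of the counting is not given in the sources used here. In the swd22 deletion 3 of these antisense features were at least 2-fold higher than in the library labelled wild type and none lower, where 15.5% of all measured antisense features were higher and 1.81% lower. In the ssu72 deletion 4 were higher and none lower, against 22.7% and 1.63% of all. In the clr4-labelled library 5 were higher and 1, that of meu18, lower, against 13.2% and 1.63%. Against the unnamed reference 3, 5 and 7 of the 25 were higher in the libraries labelled swd22, ssu72 and clr4 and 3, 2 and 2 lower, where 15.9%, 21.6% and 14.8% of all antisense features were higher and 5.56%, 3.9% and 4.56% lower. Between the CPF subunits 2 were higher in the ssu72 deletion than in the swd22 deletion and none lower by 2-fold, where 2.61% of all antisense features were higher and 0.653% lower.

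The antisense feature of meu17, which lies opposite a gene for a glucan-alpha-1,4-glucosidase, stood out. It held 526 reads in the swd22 deletion, 1699 in the ssu72 deletion and 368 in the clr4-labelled library, against 118 in the wild-type-labelled library and 312 in the unnamed reference. Its differences from the library labelled wild type were 1.79 (1.5 to 2.10), 3.20 (2.93 to 3.48) and 1.06 (0.76 to 1.37). From the unnamed reference they were 0.96 (0.76 to 1.17), 2.36 (2.19 to 2.54) and 0.23 (0.01 to 0.45), so that only the ssu72 deletion was past 2-fold there. The ssu72 deletion lay 1.40 (1.26 to 1.54) above the swd22 deletion. The gene itself held 49, 94 and 38 reads in the libraries labelled swd22, ssu72 and clr4, against 25 in the wild-type-labelled library and 30 in the unnamed reference, at 0.61, 1.26 and 0.02 from the library labelled wild type and at 0.92, 1.57 and 0.33 from the unnamed reference. The antisense feature of mug93, a meiotically spliced gene of a TPR repeat protein, held 886, 1115 and 809 reads, against 338 in the wild-type-labelled library and 214 in the unnamed reference, at 1.03, 1.07 and 0.68 from the library labelled wild type and at 2.26, 2.30 and 1.91 from the unnamed reference. The gene mug93 held 43, 70 and 39 reads, against 20 in the wild-type-labelled library and 20 in the unnamed reference, at 0.74, 1.16 and 0.38 from the library labelled wild type and at 1.31, 1.73 and 0.95 from the unnamed reference. Over the 5 libraries the antisense features of meu17 and mug93 lay at 11.4 and 11.1 times the level of the genes. The part of reads from the other strand in these gene counts was not tested. The antisense feature of mug126 was higher than in the library labelled wild type in all 3 deletions, by 1.14 (0.69 to 1.60), 1.19 (0.76 to 1.65) and 1.31 (0.87 to 1.76), with 158, 201 and 207 reads, against 56 in the wild-type-labelled library and 97 in the unnamed reference, while mug126 itself lay at -0.05, 0.06 and 0.24. That antisense feature lay, from the unnamed reference, at 0.91, 0.97 and 1.08, past 2-fold in the clr4-labelled library only.

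**Figure D5:**
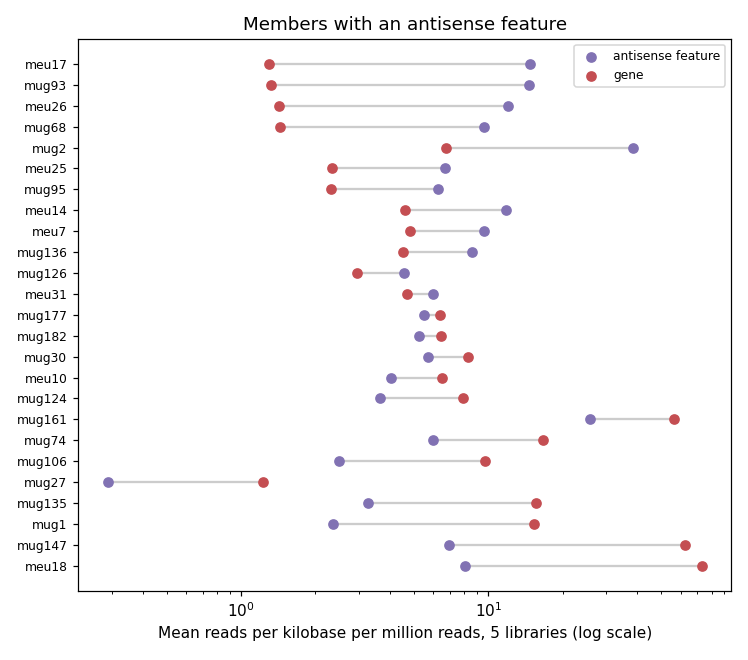
Mean level over the 5 libraries in RPKM (log scale) of 25 members (red) and of their antisense features (purple), ordered by the ratio of the levels. The antisense feature lies to the right of the gene for 12 of the 25, with meu17 at the top.

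The members were compared with meiotic genes outside the mug and meu names, in lists chosen with earlier results of these data known. Of 18 measured meiotic regulators, 1, 2 and 2 were at least 2-fold higher in the libraries labelled swd22, ssu72 and clr4 than in the library labelled wild type and 0, 2 and 1 lower. The background shares of mRNA features for these comparisons are those given above. Of 28 measured genes of recombination and pairing, 0, 3 and 0 were higher and 0, 1 and 0 lower. Of 25 measured genes listed under the forespore membrane and spore wall, 3, 2 and 0 were higher and 0, 2 and 1 lower. These counts include isp7, whose part in either structure is not shown here. It lay at 1.75, 1.65 and -1.41 and was the gene lower in the clr4-labelled library. Of 20 measured genes of mating pheromones and their response, 0, 1 and 1 were higher and 3, 11 and 7 lower, with medians of -0.39, -1.0 and -0.35. Against the unnamed reference, 6, 4 and 5 of the regulators were higher and 1 lower in each deletion, and 1, 4 and 3 of the recombination genes were higher and 2, 1 and 1 lower. Of the spore list, isp7 included, 2, 2 and 1 were higher there and 1, 1 and 2 lower. Of all measured mRNA features 8.89%, 8.39% and 8.13% were higher than in the unnamed reference and 2.34%, 2.4% and 1.74% lower.

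Of the 18 meiotic regulators, mei2 and ste11 were at least 2-fold lower in the ssu72 deletion than in the swd22 deletion, 0 were higher, and the median of the list was 0.04. mei2 held 3858 reads in the swd22 deletion, 726 in the ssu72 deletion and 1433 in the clr4-labelled library, against 1716 in the wild-type-labelled library and 1386 in the unnamed reference. In the ssu72 deletion it lay at -2.70 (-2.82 to -2.59) from the swd22 deletion, -1.89 from the library labelled wild type and -1.01 from the unnamed reference. ste11 held 4001, 2134 and 4049 reads, against 3427 in the wild-type-labelled library and 1847 in the unnamed reference, and in the ssu72 deletion lay at -1.20 (-1.27 to -1.12) from the swd22 deletion, -1.34 from the library labelled wild type and 0.13 from the unnamed reference. pat1, the kinase that blocks Mei2 in growing cells, held 2552, 2381 and 2010 reads, against 681 in the wild-type-labelled library and 1234 in the unnamed reference, and was at 1.54, 1.15 and 0.98 from the library labelled wild type and at 1.26, 0.87 and 0.69 from the unnamed reference.

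The genes mei4, rec8, ssm4 and spo5, some of the known targets of Mmi1, did not pass 2-fold in any deletion against the library labelled wild type. They were not picked by a rule and are not a full set of such targets. mei4 lay at -0.33, -0.40 and -0.40, rec8, the meiotic cohesin, at 0.11, 0.47 and 0.25, ssm4, a dynactin component, at 0.36, 0.77 and 0.22, and spo5, an RNA-binding protein of meiosis II, at -0.07, 0.13 and -0.13 in the libraries labelled swd22, ssu72 and clr4. From the unnamed reference these 4 genes lay between -0.58 and 0.33. The genes of recombination that were at least 2-fold higher in the ssu72 deletion than in the library labelled wild type were mcp5 at 1.27 (1.06 to 1.48), rec15 at 2.26 (1.44 to 3.18) and mcp7 at 1.23 (1.02 to 1.43), and from the unnamed reference they lay at 0.95, 1.63 and -1.62. The pheromone genes depended on the library labelled wild type, which lay a median of 0.94 above the unnamed reference over the 20 genes. From the unnamed reference their medians were 0.40, -0.01 and 0.26 in the libraries labelled swd22, ssu72 and clr4, with 5, 1 and 3 genes higher and none lower by 2-fold. mfm2, which encodes the M-factor pheromone, held 1232, 645 and 1188 reads in these deletions, against 1864 in the library labelled wild type and 590 in the unnamed reference.

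Members were found on all 3 chromosomes, with 59 of 2334 mRNA features on chromosome I, 34 of 1870 on chromosome II and 28 of 920 on chromosome III. Those higher than in the library labelled wild type, in the libraries labelled swd22, ssu72 and clr4, were 7, 8 and 10 of 58 measured members on chromosome I. On chromosome II they were 5 of 34, 7 of 34 and 4 of 33, and on chromosome III 2 of 26, 5 of 26 and 3 of 27. Of all measured mRNA features 6.48%, 6.1% and 5.4% were higher. In RefSeq 38.0% of members and 48.3% of all coding genes had an intron. On the strand of the gene 22 members shared bases with another feature, and among the 97 measured members that shared none, 11, 16 and 11 were higher in the libraries labelled swd22, ssu72 and clr4 and none lower by 2-fold. Those were 11.3%, 16.5% and 11.3% of the 97. Among the 21 measured members that shared bases, 3, 4 and 6 were higher (14.3%, 19.0% and 28.6%) and 1 lower in each. The part of shared reads was not tested.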

How the data were processed

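Total RNA of 4 fission yeast cultures, 1 library per genotype label, was sequenced on a NextSeq 500 from ScriptSeq v2 libraries, per the labels' protocols. Per the submitters' processing notes, Trimmomatic and STAR were used, with no version stated. Genome build, counting program and strand setting were not given in the sources used here. Each of the 4 deposited files lists 7015 features with their log2 fold change and p-value, per the file headers. The deposited log2 values are ratios to 1 shared library that the files do not name. The deposited p-values carry no spread between cultures and were not used as tests.

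Ratio and p-value together fix the whole reads of both libraries under a random sampling model, and reads were recovered so. Of 1812 to 2243 estimates under 100 reads per file, 100% lay within 0.05 of a whole number. Counts of all 121 members were solved from ratio and p-value. Recovery was tested on simulated data made with the same model, which cannot test whether the deposited values follow it. Differences are log2 ratios of recovered reads on the deposited scale, with a count of 0 as 0.5, at least 10 reads in the higher library and a call at 2-fold. Brackets hold exact 95% Clopper-Pearson intervals for counting error only, since without molecular identifiers reads do not count molecules.

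Members, gene lists and alternatives were chosen with earlier results of these data known. The text names the 6 highest and 6 lowest members per deletion whose interval does not hold 0, those higher or lower in all 3 deletions against both libraries, those 2-fold apart between the CPF deletions, the 5 most and 5 least abundant, and list members; exceptions are named as such. Sequences and introns came from RefSeq ASM294v3 by symbol or synonym. All 121 RefSeq spans shared their start or end with the files, but the other end can differ, and windows use RefSeq coordinates. The coding sequence lay inside the deposited span for 120 of them. The deposited span of meu1 was I:3804582-3804954, against 3802551-3804954 in RefSeq, so its reads cover a part of that gene. Python 3.11.15, numpy 2.4.6, pandas 2.3.3, scipy 1.17.1 and matplotlib 3.10.9 were used.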

Additional observations from a re-analysis of the deposited data

How the results depend on the processing

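At 4-fold, members higher than in the library labelled wild type numbered 5, 4 and 3 in the libraries labelled swd22, ssu72 and clr4 and members lower 0 in each, and between the ssu72 and swd22 deletions 0 were higher and 0 lower. At 1.5-fold, 35, 34 and 33 were higher and 3, 7 and 2 lower, and between the ssu72 and swd22 deletions 4 were higher and 4 lower. Shares of all mRNA features at 4-fold and 1.5-fold were not counted, so these counts have no background beside them. Against the unnamed reference, 25 were higher in the swd22 deletion, and 3 and 2 were lower in the ssu72 deletion and the clr4-labelled library. Among members that share no bases on their strand, 11 were higher in the clr4-labelled library, 0 were lower in any deletion, and 1 was higher and 0 lower between the ssu72 and swd22 deletions. With at least 5 reads, 2 were lower between them. The other counts stayed within 1.5 times, including those with at least 50 reads, a count of 0 as 1, the mRNA median at 0 or reads scaled to all mRNA reads. Of 90 differences of members named by the rule given with the processing, all 90 stayed within their counting interval under the last 3 settings. No member held 0 reads, so a count of 0 as 1 could not change a value. The other settings moved all values of a pair by the same small amount, so they could show little. For meu27 in the swd22 deletion 2.20 became 2.17 with the mRNA median at 0 and 2.18 with reads scaled to all mRNA reads. Against the unnamed reference 51 of the 90 left their interval, and none that was past 2-fold changed sign.

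With 1 library per genotype, the spread between cultures is not known, leaving out a replicate was not an option and no genotype was tested. Members with few reads have intervals of several log2 units. Reads shared with overlapping features or related copies were not separated. No paired analysis was possible because each genotype has 1 library.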
